A study of Homo sapiens with 6 samples.

Results

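The genes described here are 39 hepatocyte identity genes and their regulators, taken by symbol from a deposited table of 58302 genes. They comprise 26 liver products, of which AFP and GPC3 are oncofetal, and 13 transcription factors, and each of the 39 symbols was found in the table. The cells were MHCC97H, a human hepatocellular carcinoma line. In the DDX17_KO group DDX17, the gene of an RNA helicase, had been targeted with CRISPR/Cas9, and the control group was a non-target line made with the same system. Each group held 3 libraries of total RNA. The labels do not say whether a line was a clone or whether its libraries came from separate cultures, so the spread behind each p-value is that of these samples and may be technical.

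Hepatocytes secrete most plasma proteins, including albumin, transferrin, fibrinogen and the apolipoproteins, and carry out gluconeogenesis and drug oxidation. A network of transcription factors that bind each other's genes, among them HNF4A and the FOXA, CEBP and ONECUT families, keeps these genes active. Hepatocellular carcinomas often lose part of this programme, and some regain fetal products such as alpha-fetoprotein, encoded by AFP.

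Levels were given in FPKM, fragments per kilobase of exon and per 1000000 fragments of the library. A gene was called detected where its mean over the 6 libraries was at least 0.5 FPKM, low where it lay under that mean but above 0 in some library, and silent where it was listed at 0 in all 6. Of the 39 members, 5 were detected, 32 were low and 2 were silent. The detected members were the transcription factor genes CEBPA, CEBPB, FOXA1 and ONECUT2 and the plasma protein gene VTN. The liver products among the members were thus mostly low in this line. On the deposited scale ALB, the gene of albumin, reached at most 0.365 FPKM in any library, and AFP at most 0.0665 FPKM. In bulk RNA, fewer cells of a type and less RNA per cell cannot be told apart.

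RefSeq windows of 300 bases on GRCh38.p14, from 250 bases before to 50 bases after a gene's start, were matched for 27 of the 39 members. ALB and AFP are shown as low products, and CEBPA and FOXA1 as detected regulators. They are printed 5′ to 3′ on the gene's strand. Capitals mark the dinucleotide CG and the hexamer GTTAAT, searched on both strands, an AT-rich element described in promoters of liver genes.
ALB, chr4:73404037-73404336, plus strand: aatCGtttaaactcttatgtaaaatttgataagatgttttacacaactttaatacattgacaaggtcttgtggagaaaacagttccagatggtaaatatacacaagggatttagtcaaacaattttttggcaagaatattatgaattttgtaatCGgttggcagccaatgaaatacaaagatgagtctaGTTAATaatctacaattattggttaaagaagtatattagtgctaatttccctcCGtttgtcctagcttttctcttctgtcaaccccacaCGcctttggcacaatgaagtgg
AFP, chr4:73435971-73436270, plus strand: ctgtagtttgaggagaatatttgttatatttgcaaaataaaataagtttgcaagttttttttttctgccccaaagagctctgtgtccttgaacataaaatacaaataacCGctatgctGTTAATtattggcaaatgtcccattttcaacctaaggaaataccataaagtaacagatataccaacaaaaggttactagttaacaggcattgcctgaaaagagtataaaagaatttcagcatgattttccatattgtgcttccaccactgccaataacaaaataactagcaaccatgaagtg
CEBPA, chr19:33302485-33302784, minus strand: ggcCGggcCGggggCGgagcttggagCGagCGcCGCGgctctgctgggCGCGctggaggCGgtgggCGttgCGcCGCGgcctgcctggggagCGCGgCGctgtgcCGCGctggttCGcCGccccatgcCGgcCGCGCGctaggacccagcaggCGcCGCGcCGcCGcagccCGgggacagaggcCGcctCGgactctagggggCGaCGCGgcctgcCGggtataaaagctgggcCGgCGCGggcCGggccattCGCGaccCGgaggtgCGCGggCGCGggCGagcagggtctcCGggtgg
FOXA1, chr14:37595200-37595499, minus strand: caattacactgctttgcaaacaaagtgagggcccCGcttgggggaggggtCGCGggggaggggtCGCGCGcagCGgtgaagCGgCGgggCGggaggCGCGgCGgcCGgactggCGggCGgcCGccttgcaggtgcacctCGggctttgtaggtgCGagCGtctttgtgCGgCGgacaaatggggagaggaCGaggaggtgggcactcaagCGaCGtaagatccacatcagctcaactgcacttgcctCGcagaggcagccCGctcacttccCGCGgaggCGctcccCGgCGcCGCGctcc

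The ALB window held 4 CG dinucleotides and the AFP window 1, against 50 in the CEBPA window and 34 in the FOXA1 window. GTTAAT began 61 bases before the start of ALB (position -61) and 132 bases before that of AFP (position -132). The 5 windows of the 4 detected regulators held 24 to 50 CG dinucleotides. The detected product VTN held 5. The 21 windows of 16 low products held 0 to 36, with a median of 4, and the median of all 35116 windows was 14. Among low regulators, FOXA3 with 37 and ONECUT1 with 39 lay in the range of the detected ones, so CG content did not separate detected from low regulators. GTTAAT was present in 0 of 5 detected genes, in 9 of 21 low genes and in G6PC, and in 8.27% of all 27305 genes with a window. A match is a description of the letters and not a sign of a bound factor, and no test was made.

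**Figure D1:**
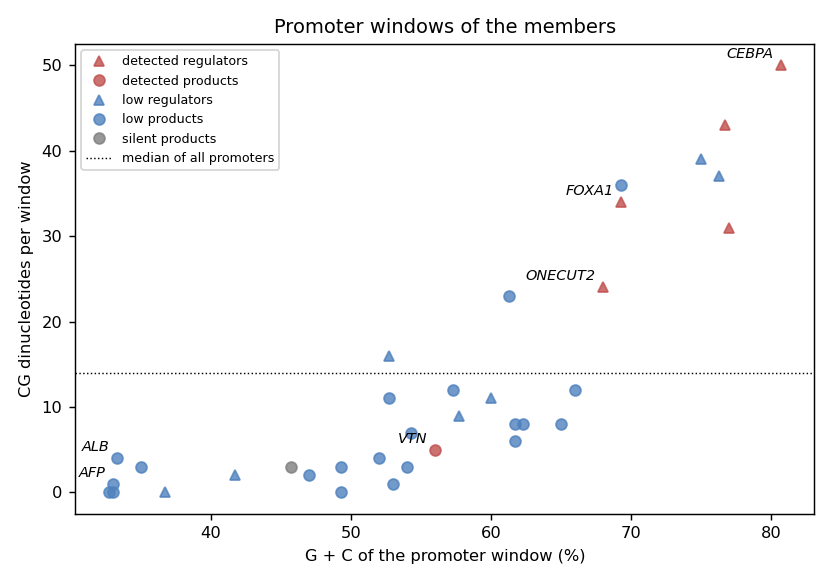
CG dinucleotides per promoter window of 300 bases (vertical axis) against the G + C percentage of the window (horizontal axis) for 27 members, with 1 point for each annotated start. Red marks detected, blue low and grey silent members, triangles are regulators and circles are products, and the dotted line is the median of all windows, 14. The detected regulators lie between 24 and 50, while ALB, AFP and VTN lie at 4, 1 and 5.

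Estimated depth was 5350000 to 10620000 fragments in the DDX17_KO libraries and 12340000 to 14550000 in the controls. DDX17 itself stood at 22.4, 7.64 and 19.1 FPKM in DDX17_KO, against 45.7, 41.4 and 43.9 FPKM in controls. By limma its log2 fold change of -1.48 had an adjusted p of 0.282, and without DDX17_KO replicate 2 the values were -1.04 and 0.0334. An exact permutation test, two-sided, gave p = 0.1, which is the lowest that 20 arrangements can reach. Both libraries numbered 2 stood apart within their groups, with deviations that rose with the GC content of transcripts (Spearman's rho across genes 0.533 in DDX17_KO and 0.584 in control), while the other 4 had rho from -0.534 to -0.32. At an adjusted p under 0.05, limma called 0 of 15620 genes higher and 6 lower in DDX17_KO, which is 0.0384% of the genes. At an unadjusted p under 0.05 there were 986 higher and 1123 lower genes. Without DDX17_KO replicate 2, the shallowest library, 304 genes were higher and 268 lower, 3.66% of those tested.

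Of the 5 detected members, 0 passed the limma threshold, beside 0.0384% of all genes tested. At an unadjusted p under 0.05, CEBPB and ONECUT2 would have passed, and voom on fragments, described below, also called 0 of the 5. The groups did not overlap for CEBPB and FOXA1, for which every DDX17_KO library lay below every control. That is 2 of 5 members, beside 20.7% of all tested genes without overlap in either direction and 12.6% in that direction. With 5 genes the share says little. The median log2 fold change of the 5 was 0.00, and that of all tested genes was -0.03.

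CEBPB encodes a basic leucine zipper factor of the acute phase response and liver regeneration (hg38 chromosome 20, 50190734 to 50192689, 1 annotated transcript). Replicates 1, 2 and 3 gave 8.66, 9.46 and 7.22 FPKM in DDX17_KO, against 11.7, 18.9 and 11.7 FPKM in control, an order kept below. The highest DDX17_KO library lay below the lowest control, and control replicate 2 stood above the rest. The means were 8.45 ± 1.13 FPKM in DDX17_KO and 14.1 ± 4.15 FPKM in control (SD, n = 3 each). By limma the log2 fold change was -0.65 (SE 0.23, adjusted p 0.366). Without control replicate 2 it was -0.43. After a correction of each library for GC content and transcript length it was -0.29, with values of 11.1, 8.58 and 9.51 FPKM in DDX17_KO and 11.5, 14.0 and 10.7 FPKM in control, and the groups overlapped.

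CEBPA encodes the related factor that drives hepatocyte differentiation and holds back proliferation (chromosome 19, 33299934 to 33302564, 1 transcript). Its levels were 4.19, 7.32 and 5.79 FPKM in DDX17_KO, against 5.33, 6.31 and 5.30 FPKM in control. The control values lay within the DDX17_KO range, and in both groups replicate 2 was the highest. The means were 5.76 ± 1.57 FPKM in DDX17_KO and 5.65 ± 0.58 FPKM in control (SD, n = 3 each). By limma the log2 fold change was 0.00 (95% confidence interval -0.50 to 0.50, adjusted p 0.998), and it was -0.16 without DDX17_KO replicate 2. The interval leaves room for a change in either direction. With the GC and length correction the fold change was 0.37, and the corrected values, 5.43, 6.79 and 7.58 FPKM in DDX17_KO and 5.19, 4.56 and 4.77 FPKM in control, no longer overlapped (limma adjusted p 0.287).

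FOXA1 encodes a pioneer factor that opens liver enhancers (chromosome 14, 37589984 to 37596059). It had 4.35, 5.03 and 2.78 FPKM in DDX17_KO, against 5.43, 5.63 and 6.02 FPKM in control. The controls lay close together and above each DDX17_KO library, and DDX17_KO replicate 3 was the lowest. The means were 4.05 ± 1.15 FPKM in DDX17_KO and 5.70 ± 0.30 FPKM in control (SD, n = 3 each). Limma gave a log2 fold change of -0.43 (SE 0.21, adjusted p 0.390). With the GC and length correction it was -0.23, and the groups overlapped.

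ONECUT2 encodes a cut homeobox factor of liver and biliary development (chromosome 18, 57435685 to 57491297). It had 11, 5.26 and 14.6 FPKM in DDX17_KO, against 6.03, 2.77 and 4.70 FPKM in control. DDX17_KO replicate 2 fell between the controls, and in both groups replicate 2 was the lowest. The fragments behind these values numbered 466 to 1985 in DDX17_KO and 638 to 1231 in control. The means were 10.3 ± 4.71 FPKM in DDX17_KO and 4.5 ± 1.64 FPKM in control (SD, n = 3 each). Limma gave a log2 fold change of 0.98 (SE 0.38, adjusted p 0.369).

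The size for ONECUT2 depended on the libraries numbered 2 more than its direction did. Of the same-numbered libraries, those numbered 2 deviated together most clearly. Blocked on the replicate number, the fit gave an adjusted p of 0.0718 by limma. Without DDX17_KO replicate 2 the log2 fold change was 1.36, with an adjusted p of 0.0539. With the GC and length correction it was 0.50, and the corrected values of 7.30, 6.96 and 9.64 FPKM in DDX17_KO lay above the 6.18, 4.66 and 5.18 FPKM of the controls. Over 19 other settings the adjusted p ran from 0.0161 to 0.994, and ONECUT2 passed in 2 of them, with array weights and without both libraries numbered 2. In those settings 24.7% and 8.81% of all genes passed too.

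VTN was the detected plasma protein. It encodes vitronectin, an adhesive protein that hepatocytes secrete (chromosome 17, 28367276 to 28373091). Its levels were 2.37, 3.81 and 2.87 FPKM in DDX17_KO, against 1.99, 2.41 and 2.43 FPKM in control. The groups overlapped only in that DDX17_KO replicate 1 lay below 2 controls. The means were 3.02 ± 0.73 FPKM in DDX17_KO and 2.27 ± 0.25 FPKM in control (SD, n = 3 each), from 64 to 79 and 77 to 111 fragments. The log2 fold change by limma was 0.28 (SE 0.19, adjusted p 0.475). It was 0.14 without DDX17_KO replicate 2 and 0.11 with array weights. With the GC and length correction it was 0.58 (adjusted p 0.206), and all DDX17_KO libraries, at 3.08, 3.39 and 3.75 FPKM, lay above all controls, at 1.96, 1.67 and 2.26 FPKM.

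**Figure D2:**
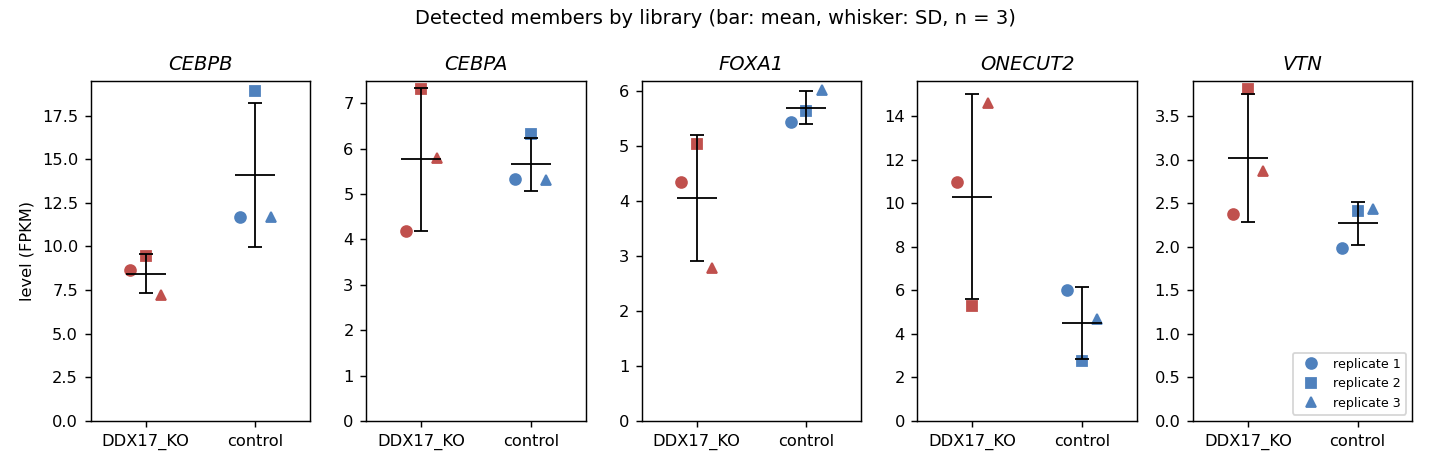
FPKM (vertical axes, from 0) of the 5 detected members in each library, with the 3 DDX17_KO libraries on the left and the 3 control libraries on the right of each panel. Symbols give the replicate number, and bars and whiskers the mean and SD. Only CEBPB and FOXA1 show groups without overlap, both lower in DDX17_KO, and replicate 2 is the lowest library of both groups in the ONECUT2 panel.

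The order of the detected members by level depended on the length used. For genes with several transcripts, nearly all low FPKM values gave back whole numbers of fragments when the length was the sum of all distinct annotated exons, overlapping ones each counted, though for SOX9 the longest transcript did, so genes with many isoforms were divided by more than a transcript's length. On the deposited scale FOXA1 (5 transcripts) averaged 4.87 FPKM over the 6 libraries. Recomputed with its longest transcript as length it averaged 10.8 FPKM, close to CEBPB at 11.3 and above ONECUT2 at 7.59, CEBPA at 5.71 and VTN at 3.86. On that scale each gene overlapped with the next in this order over the 6 libraries. For ALB, 20 transcripts make 7712 bases of distinct exons against 2263 in the longest, and the scale differed by a factor of 3.41. Its controls averaged 1.04 FPKM with the longest transcript as length, against 0.306 FPKM as deposited. Over the 6 libraries ALB averaged 0.521 FPKM with the longest transcript, above the 0.5 FPKM set for a detected gene. Ratios of FPKM between groups do not depend on this length, but fold changes of FPKM + 1 and the limit of 0.5 FPKM do.

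**Figure D3:**
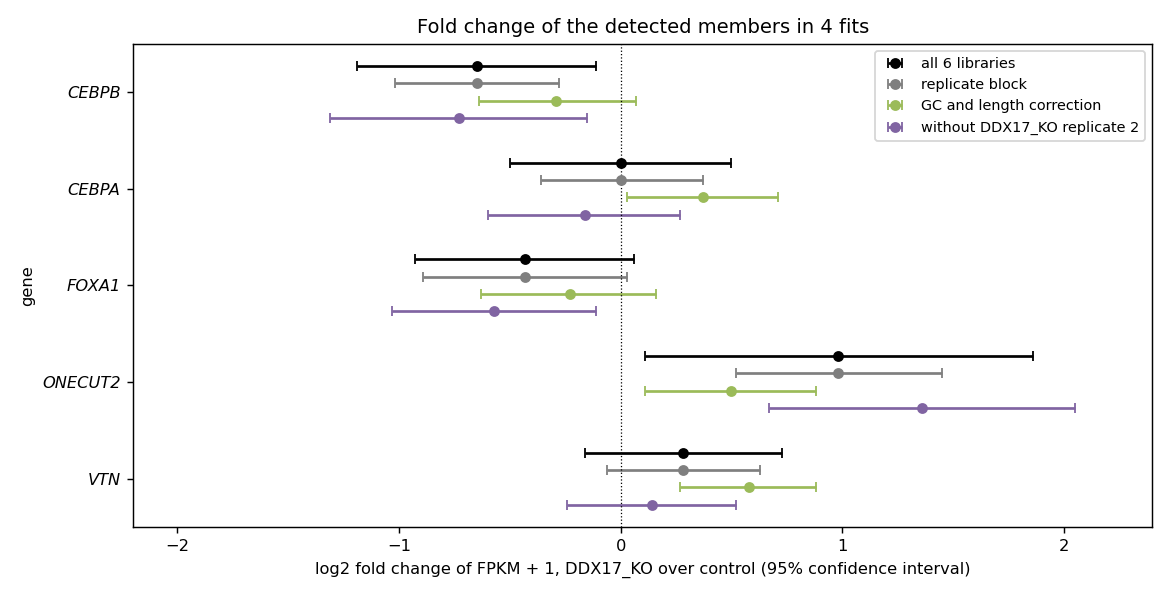
Log2 fold change of FPKM + 1, DDX17_KO over control (horizontal axis), with 95% confidence intervals, for the 5 detected members in 4 limma fits: all 6 libraries, with a replicate block, with a GC and length correction, and without DDX17_KO replicate 2. CEBPA runs from -0.16 without DDX17_KO replicate 2 to 0.37 with the correction, and ONECUT2 stays above 0 in each fit, from 0.50 to 1.36.

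The 32 low members were read as fragments, since their FPKM values went back to whole numbers in 36 of the 39 members (within 0.05 of a whole number; TTR, TF and NR1H4 are approximate). Their groups did not overlap for 10 genes that were lower and 3 that were higher in DDX17_KO. Among all 14983 genes below the filter with some value above 0, 4.08% were lower without overlap and 5.84% were higher. Among the 5958 protein-coding ones the shares were 6.28% lower and 6.7% higher. The 10 lower ones were all liver products: ALB, TF, AMBP, APOA1, APOA2, APOB, APOE, SERPINA1, GPC3 and PCK1. The 3 higher ones were HPX, CYP2E1 and NR1H4. Low fragment numbers make each gene's value coarse, and intervals given here cover counting error only. Floors allow for 3 fragments in the group at 0 but take the count of the other group as exact.

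Plasma carriers made up the largest share in the controls, and the 8 low genes together had 9, 4 and 2 fragments in DDX17_KO, against 77, 61 and 81 in control. ALB had 0 fragments in each DDX17_KO library, against 33, 22 and 41 in control replicates 1, 2 and 3. Every control had some and no DDX17_KO library any. Set against a floor of 3 fragments over the DDX17_KO group, ALB was 19-fold lower in DDX17_KO in CPM, fragments per 1000000 of the library. TF, the iron carrier transferrin, had 0 in each DDX17_KO library, against about 20, 17 and 20 in control. TF was 11.3-fold lower against the floor. AMBP, the precursor of alpha-1-microglobulin and bikunin, had 1, 0 and 0 fragments in DDX17_KO, against 13, 13 and 14 in control, a ratio of 0.0422 with a 95% counting interval from 0.00104 to 0.249.

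Other carriers were rarer. TTR, the thyroxine and retinol-binding protein carrier transthyretin, had 0 in DDX17_KO, against about 6, 7 and 0 in control. HPX, which binds free haem, went the other way: it had 7, 4 and 2 fragments in DDX17_KO, against 3, 2 and 3 in control, a ratio of 2.74 with a counting interval from 1.05 to 7.63. AHSG had at most 2 fragments in a library, and HP and APOH at most 1. These numbers give no readable difference.

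Apolipoproteins, the protein part of lipoprotein particles, had 5, 3 and 6 fragments in DDX17_KO over the 6 low genes together, against 44, 44 and 44 in control. APOA2 had 0 in each DDX17_KO library, against 7, 9 and 7 in control, 4.54-fold lower against the floor. APOA1 had 0, against 4, 3 and 7 in control, 2.77-fold lower against the floor. Both encode proteins of high-density lipoprotein. APOB, the scaffold of very low-density lipoprotein, had 0, 3 and 2 fragments in DDX17_KO, against 18, 16 and 19 in control, a ratio of 0.159 with a counting interval from 0.0496 to 0.395. APOE, a ligand of lipoprotein receptors, had 5, 0 and 4 in DDX17_KO, against 11, 9 and 11 in control. In CPM its ratio was 0.490, with an interval from 0.205 to 1.05 that reached no change. APOC1 had 0 in DDX17_KO, against 3, 7 and 0 in control, and APOC3 had 1 fragment in all.

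The fibrinogen chains, which polymerise into the clot, had few fragments in either group. FGG had 0, 0 and 3 fragments in DDX17_KO, against 13, 5 and 11 in control, a ratio of 0.175 with a counting interval from 0.0340 to 0.563. FGA had 2, 0 and 0 in DDX17_KO, against 1, 2 and 7 in control, and its interval, from 0.0359 to 1.58, included no change. FGB had 0 in DDX17_KO, against 0, 0 and 3 in control. SERPINA1, the elastase inhibitor alpha-1-antitrypsin, had 0 in DDX17_KO, against 5, 5 and 3 in control, 2.57-fold lower against the floor.

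The oncofetal products were near 0 in both groups. AFP had 0 in DDX17_KO, against 0, 4 and 3 fragments in control. GPC3, a cell surface proteoglycan used as a marker of hepatocellular carcinoma, had 0 in DDX17_KO, against 4, 4 and 2 in control. GPC3 was 1.98-fold lower against the floor. These are a few fragments among 24180000 in DDX17_KO and 40800000 in control.

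The low enzymes lay in different directions. CYP2E1, an ethanol-oxidising cytochrome P450, had 3, 3 and 4 fragments in DDX17_KO, against 0 in each control. CYP2E1 was 5.62-fold higher against the floor, set here over the control group. PCK1, the gluconeogenic enzyme, had 0 in DDX17_KO, against 2, 4 and 2 in control, 1.58-fold lower against the floor. CYP3A4, the main drug-oxidising P450 of adult liver, had 1, 0 and 0 in DDX17_KO, against 2, 0 and 4 in control. TAT, which breaks down tyrosine, had 0 in DDX17_KO, against 0, 3 and 0 in control. Over the 4 low enzymes the sums were 0.376, 0.561 and 0.487 CPM in DDX17_KO and 0.324, 0.503 and 0.412 CPM in control, and the groups overlapped. G6PC, which releases free glucose, was silent, and a count of 0 allows up to 3 fragments in each group.

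The 8 low regulators showed no lower member without overlap. HNF4A, the nuclear receptor at the centre of the hepatocyte network, had 2, 0 and 3 fragments in DDX17_KO, against 4, 6 and 2 in control. HNF4G, its paralogue, had 11, 2 and 7 in DDX17_KO, against 6, 2 and 7 in control. ONECUT1, the paralogue of ONECUT2, had 1, 0 and 4 in DDX17_KO, against 4, 5 and 3 in control. None of these 3 separated the groups, and the ratios of HNF4A and ONECUT1 were both 0.703, with a counting interval from 0.194 to 2.14. The ratio of HNF4G was 2.25, with an interval from 1.09 to 4.72 that takes no account of the spread between libraries.

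NR5A2, a nuclear receptor of bile acid synthesis, had 4, 2 and 2 fragments in DDX17_KO, against 5, 4 and 8 in control. NR1H4, the bile acid receptor FXR, had about 1 fragment in each DDX17_KO library and 0 in each control. FOXA2 and FOXA3, paralogues of FOXA1, had at most 2 fragments in a library, and PROX1 was silent. SOX9, a factor of biliary and progenitor cells, had 1, 14 and 0 fragments in DDX17_KO, against 11, 22 and 30 in control. DDX17_KO replicate 2 held nearly all of the SOX9 fragments of its group although it was the shallowest library, and its level of 0.665 FPKM lay above the 0.227 to 0.524 FPKM of the controls. Replicates 1 and 3 of DDX17_KO lay below them, so the groups overlapped.

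**Figure D4:**
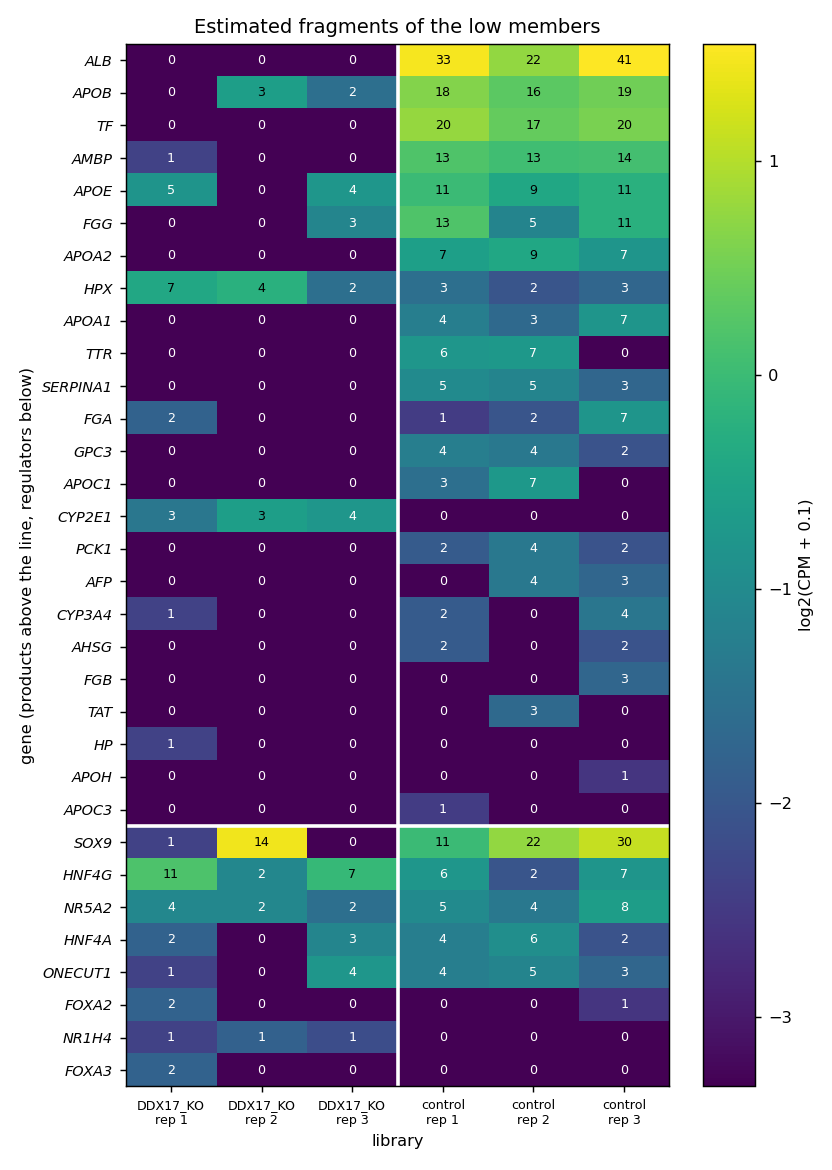
Estimated fragments of the 32 low members (rows) in the 6 libraries (columns, DDX17_KO left of the line and control right of it). Numbers are fragments, colour is log2 of CPM plus 0.1, products stand above the horizontal line and regulators below. ALB, TF, APOA1, APOA2, SERPINA1, GPC3 and PCK1 are at 0 in every DDX17_KO library and above 0 in every control, and CYP2E1 and NR1H4 show the reverse.

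Taken by presence, 7 of the 32 low members had fragments in each control and in no DDX17_KO library, beside 1.35% of all genes below the filter and 1.48% of the protein-coding ones. The 2 with the reverse, CYP2E1 and NR1H4, stood beside 0.841% and 1.21%. The DDX17_KO libraries were shallower, so a gene of a few fragments is also more easily missed there. Genes above 0 nevertheless numbered 24241, 21490 and 23654 in DDX17_KO replicates 1, 2 and 3, against 23004, 22820 and 23073 in control. Sums in CPM take depth into account. Over the 24 low products they were 1.88, 1.87 and 1.83 CPM in DDX17_KO, from 20, 10 and 15 fragments, against 12, 9.49 and 11 CPM in control, from 148, 132 and 160 fragments. Without ALB the sums were 1.88, 1.87 and 1.83 CPM in DDX17_KO and 9.32, 7.91 and 8.18 CPM in control. Over the 8 low regulators they were 2.26, 3.55 and 2.07 CPM in DDX17_KO and 2.43, 2.80 and 3.5 CPM in control, with overlap.

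Markers of red cells moved with the liver products. HBB, which encodes beta globin, was listed at 0 in each DDX17_KO library, against 29.4, 23.1 and 25.6 FPKM in control (limma adjusted p 8.15e-05). HBA1 had 0.241 ± 0.358 FPKM in DDX17_KO and 19.9 ± 2.97 FPKM in control (SD, n = 3 each), and HBA2 was listed at 0 in each DDX17_KO library, against 17.0, 13.8 and 16.5 FPKM in control. These near-identical copies of the alpha globin gene, between which fragments cannot be divided with certainty, fell too (limma adjusted p 0.00121 and 0.000112). These were 3 of the 3 tested genes of an 18-gene erythroid list, and all 3 passed the filter on low values through the controls alone. Of the list, 6 of the 18 were at 0 in all libraries, among them the erythroid factor genes KLF1 and GATA1. ALAS2, the red-cell enzyme of haem synthesis, had 0 fragments in DDX17_KO, against 8, 4 and 5 in control. The summed level of the list was 0.0289 to 0.673 FPKM in DDX17_KO and 54.6 to 70.0 FPKM in control. The 3 globin genes together had 0, 6 and 1 fragments in DDX17_KO, against 1851, 1625 and 1938 in control. Their part in the difference of the liver products was not tested.

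**Figure D5:**
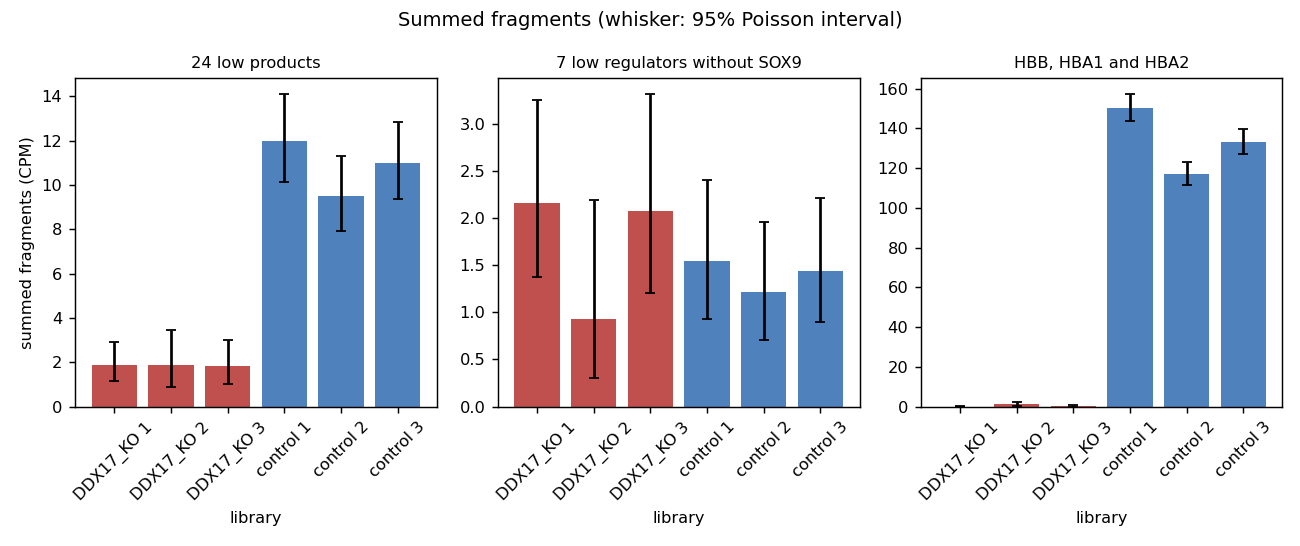
Summed fragments in CPM (vertical axes, from 0, with a different scale in each panel) in the 3 DDX17_KO and 3 control libraries for the 24 low products, the 7 low regulators other than SOX9, and HBB, HBA1 and HBA2. Whiskers are 95% Poisson intervals of the fragments and cover counting error only. Products stand at 1.83 to 1.88 in DDX17_KO and 9.49 to 12 in control, the globin sum at 0.00 to 1.12 and 117 to 150, and the regulators overlap.

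A test on fragments was possible for 16 members. Limma with voom weights was run on the 17202 genes with at least 20 fragments over the 6 libraries. It called 4 genes higher and 14 lower, and the 14 are 0.0814% of those tested. ALB passed as lower, at -5.18 on the log2 scale (limma adjusted p 0.0439), and so did TF, at -4.48 (limma adjusted p 0.0439). Both reached the minimum of 20 through the controls alone, so the calls are no independent support, and a fitted fold change against a group at 0 depends on the prior count.

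Whether these members passed rested on few fragments and on which libraries were kept. AMBP, APOA2, APOB, APOE, FGG and SOX9 also reached the minimum of 20 fragments through the controls alone, and HNF4G through DDX17_KO alone. Their fits are no independent support either. SOX9 entered the fits with the sum of distinct exons as length. Its fragments there were 1, 17 and 0 in DDX17_KO and 13, 26 and 36 in control. In a fit with the replicate block, 10.6% of all genes passed, and with them ALB, TF, AMBP and APOA2 as lower and ONECUT2 as higher. Without DDX17_KO replicate 2, 8.63% of all genes passed, with 7 members: ALB, TF, AMBP, APOA2, APOB and SOX9 as lower and ONECUT2 as higher. With any of the other 5 libraries left out, 0 members passed, and the limma adjusted p reached 0.259 for ALB and 0.265 for TF. With single libraries left out, the fitted log2 fold changes stayed between -5.46 and -4.95 for ALB and between -4.76 and -4.25 for TF. HPX (1.26), HNF4G (1.16) and FGG (-2.56) did not pass with all 6 libraries, at adjusted p of 0.340, 0.365 and 0.276 by limma.

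Beyond the members, more liver regulators than liver products were abundant enough to test. Of 29 other liver regulators, 18 were tested and 0 passed by limma (4 lower at an unadjusted p under 0.05); 5 had a log2 fold change above 0 and 13 below, and the median was -0.17, against -0.03 for all tested genes. TBX3, a T-box factor of liver bud growth, had the highest mean, at 7.79, 10.7 and 7.89 FPKM in DDX17_KO, against 20.3, 25.2 and 20.4 FPKM in control. The groups were far apart relative to their spread, with a log2 fold change of -1.23, but the limma adjusted p was 0.123. CEBPG, a partner of the CEBP factors, averaged 12.1 ± 4.06 FPKM in DDX17_KO and 12.6 ± 0.99 FPKM in control (SD, n = 3 each).

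Of 54 other secreted liver proteins, 3 were tested by limma, 17 were at 0 throughout and 0 passed (1 higher at an unadjusted p under 0.05). The 51 below the filter summed to 1.35 to 1.97 FPKM in DDX17_KO and 2.45 to 2.64 FPKM in control, without overlap. C3, the central complement component, had 1.52, 3.23 and 6.16 FPKM in DDX17_KO, against 4.88, 6.03 and 5.14 FPKM in control, with overlap. PROS1, the anticoagulant protein S, averaged 4.27 ± 1.20 FPKM in DDX17_KO and 4.4 ± 1.23 FPKM in control (SD, n = 3 each). Of 48 other genes of liver metabolism and transport, 4 were tested by limma, 17 were at 0 throughout and 0 passed (1 higher unadjusted). The 44 below the filter summed to 1.03 to 2.28 FPKM in DDX17_KO and 1.21 to 2.49 FPKM in control, with overlap. ABCC2, a canalicular exporter, had 35.2, 26.7 and 41.3 FPKM in DDX17_KO, against 22.4, 13.9 and 22.6 FPKM in control, without overlap, and limma put the log2 fold change at 0.79 (adjusted p 0.352). SLCO1B3, a hepatocyte uptake carrier, averaged 10.7 ± 1.88 FPKM in DDX17_KO and 8.65 ± 2.09 FPKM in control (SD, n = 3 each).

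Lists of neighbouring cell states were measured beside the members. Of 16 oncofetal genes, 9 were tested and 0 passed by limma (1 lower unadjusted). H19, a fetal imprinted RNA, had 492, 434 and 402 FPKM in DDX17_KO, against 659, 822 and 610 FPKM in control, without overlap (limma adjusted p 0.338), and S100P averaged 74.0 ± 54.1 FPKM in DDX17_KO and 78.3 ± 8.62 FPKM in control (SD, n = 3 each). Of 20 progenitor and cholangiocyte genes, 9 were tested and 0 passed by limma (1 lower unadjusted). The epithelial keratin KRT7, a biliary marker, had 310, 419 and 293 FPKM in DDX17_KO, against 366, 530 and 386 FPKM in control, and KRT18 averaged 188 ± 44.4 FPKM in DDX17_KO and 207 ± 22.9 FPKM in control (SD, n = 3 each). The 11 list members below the filter summed to 0.178 to 0.247 FPKM in DDX17_KO and 0.689 to 0.832 FPKM in control.

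Of 11 stellate and fibroblast genes, 7 were tested and 0 passed by limma (1 higher and 2 lower unadjusted). Their sum was 51.3 to 93.2 FPKM in DDX17_KO and 41.5 to 49.8 FPKM in control. Its largest part was COL3A1, a fibrillar collagen, at 79.8, 27.2 and 33.5 FPKM in DDX17_KO, against 20.7, 25.6 and 20.5 FPKM in control, and COL1A1 averaged 8.22 ± 2.89 FPKM in DDX17_KO and 13.6 ± 1.8 FPKM in control (SD, n = 3 each). Of 15 leukocyte genes only CD68 was tested (higher unadjusted, not past the threshold by limma), and the sum was 2.45 to 3.75 FPKM in DDX17_KO and 2.08 to 3.47 FPKM in control. The 14 others summed to 0.381 to 0.538 FPKM in DDX17_KO and 0.796 to 1.83 FPKM in control, and CD3D and CD3E were at 0 throughout. Much of the control sum was CSF1R, at 0.0424, 0.392 and 0.0731 FPKM in DDX17_KO, against 0.717, 0.68 and 0.639 FPKM in control. S100A9 had 0.843 FPKM in control replicate 1 and was listed at 0 in all other libraries. CD14, CD79A, CLEC4F, MS4A1 and CD163 had higher means in DDX17_KO. No endothelial gene of 10 was tested, and their sum was 0.292 to 0.597 FPKM in DDX17_KO and 0.587 to 0.819 FPKM in control. Its largest part in control was CDH5, at 0.111, 0.186 and 0.254 FPKM in DDX17_KO, against 0.58, 0.424 and 0.61 FPKM in control. PECAM1 overlapped, at 0.114, 0.0826 and 0.215 FPKM in DDX17_KO, against 0.116, 0.127 and 0.137 FPKM in control. Only CDH5 and STAB1 of the list had a lower mean in DDX17_KO. The part of these sums in the members' differences was not tested.

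Exons of 13 members overlap another annotated gene, and the sources used here do not give whether counting used the strand. The overlap covers 25.0% of CEBPA exons (antisense AC008738.3, listed at 0), 11.8% of CEBPB exons (antisense CEBPB-AS1, with a mean of 0.343 FPKM), 13.6% of VTN exons, 43.2% of APOC1 exons and 21.5% of CYP2E1 exons (antisense SYCE1, listed at 0). Fragments of such pairs cannot be told apart. Of the overlapping partners, SRPRB alone was abundant, with a mean of 16.2 FPKM, and it covers 0.4% of TF exons.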

How the data were processed

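Total RNA of 6 MHCC97H libraries was measured, and titles of the samples gave groups and replicate numbers. The deposited table holds gene-level FPKM computed by the authors. Per the submitters' processing notes, CASAVA 1.8, HISAT2, StringTie and edgeR were used with the build hg38. What each tool did, which annotation was used, whether counting was stranded and what was filtered is not given in the sources used here. Of 58302 genes in the table, 58039 had an identifier in GENCODE release 29, whose exons and transcripts supplied lengths and GC content, and 27699 were at 0 in all libraries.

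The members and lists were chosen with earlier results of these data known. Testing was limited to genes whose 6 libraries averaged 0.5 FPKM or more. It used limma 3.58.1 (R 4.3.3), two-sided, on log2(FPKM + 1) with an intensity trend, Benjamini-Hochberg adjustment over 15620 genes and a threshold of 0.05. The pseudocount of 1 makes fold changes of weakly expressed genes too small. DDX17 also had an exact permutation test over 20 arrangements.

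Depth was estimated from the steps between the values. For genes with 1 transcript, 99.97% to 100.0% of values up to 20 fragments were whole to within 0.05, and 10.0% would be by chance. For genes with several transcripts, 96.68% to 97.01% did so with the sum of distinct exons as length, and 9.7% to 10.34% with merged exons. SOX9 alone was read with its longest transcript, though not in the fits on fragments, which used the sum of distinct exons for every gene. Fragments recovered this way were tested with limma and voom weights, an alternative chosen after seeing the data. CPM are estimated fragments per 1000000 of the library, and floors are 3 fragments over a group. Intervals are exact, at 95%.

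Deviations from the group means correlated across genes at 0.3, 0.546 and 0.214 between same-numbered libraries of the groups. For the replicate block the numbers were taken to pair them. Deviations within a group sum to 0, so once the libraries numbered 2 deviate together, the others tend to correlate under either pairing. The values thus do not settle how replicates 1 and 3 pair. The labels do not state a pairing. DDX17_KO replicate 3 also correlated with control replicate 1, at 0.329, above its 0.214 with control replicate 3. After the GC and length correction the same-numbered correlations were 0.155, 0.347 and 0.115. The correction for GC content and length used splines with 4 degrees of freedom in each and also removes any such trend shared by a group. Detected members had values given in each library, and low ones by library where a library had 3 or more fragments. From the other lists, genes past the threshold were named, or else up to 2 tested genes with the highest mean. Some genes below the filter were also named. Not every listed gene is reported here. Other alternatives were pseudocounts of 0.1 and 0.01, other scalings and filters, array weights, and each library left out. Leaving out both libraries numbered 2 was chosen after seeing the data. Values were handled with Python 3.11.15, pandas 2.3.3 and scipy 1.17.1. The scripts' tests were checked on simulated data.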

Additional observations from a re-analysis of the deposited data

How the results depend on the processing

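Direction was the same for CEBPB, FOXA1, ONECUT2 and VTN in each of 19 other settings by limma, and for CEBPA it was not. The log2 fold change of CEBPA was -0.10 with array weights, -0.09 without both libraries numbered 2, -0.03 by voom, and -0.16 to 0.18 with single libraries left out. By fragments it ran from -0.22 to 0.19 with single libraries left out, and that of NR5A2 from -0.41 to 0.03. The cause was not tested. The median over the 5 detected members was 0.37 with the GC and length correction, with or without the replicate block, against 0.00 in the reported fit, and -0.16 to 0.18 with single libraries left out.

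Genes called over all those tested numbered 6, 11 with the GC and length correction, 15 with no filter, 3861 with array weights, 1376 without both libraries numbered 2 and 3 to 572 with single libraries left out. Among single libraries left out, the highest count came without DDX17_KO replicate 2. Members called numbered 3 of 5 with array weights (ONECUT2 higher, CEBPB and FOXA1 lower) and 1 without both libraries numbered 2 (ONECUT2). They numbered 0 in the other settings. DDX17 passed with array weights at -1.11 and without both libraries numbered 2 at -1.08, and ran from -1.76 to -1.04 with single libraries left out. With the replicate block the calls on FPKM numbered 4 genes and 0 members, and on FPKM the block changed no call on a member. By fragments, 18 genes and 2 members were called with all libraries, 1830 and 5 with the replicate block, 2582 and 6 without both libraries numbered 2, and 2 to 1484 and 0 to 7 with single libraries left out.

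Depth limits the low members most: a count of 0 allows up to 3 fragments, and the shallowest library held 5350000 fragments.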
